A study of Gallus gallus with 6 samples.

Results

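The basic helix-loop-helix (bHLH) genes of early mesoderm other than TAL1 were examined in Hb-eGFP+ cells of the chick gastrula. They are the paraxial genes MSGN1 and TCF15, the lateral plate genes HAND1 and HAND2, and TWIST1, a gene of mesenchyme in several mesodermal tissues. They were taken by name, through the gene IDs of the array annotation, and all 5 were on the array, with 6 of its 38439 probe sets, since TCF15 was read by a pair of probe sets and each of the others by 1. With 1 probe set per gene, 13009 genes were tested.

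Hb-eGFP+ cells are eGFP-positive cells sorted from chick embryos that carried a green reporter driven by a fragment of the Cerberus regulatory region, which is active in blood island progenitors, and the human beta-globin minimal promoter. RFP+ control cells are the eGFP-negative, RFP-positive cells of the same kind of embryo and carried the ubiquitous pCAGGS-RFP reporter. All embryos received both plasmids by electroporation at HH3 and were harvested at HH5-6 in 3 pools of 4 embryos, which gave 3 samples of each population and 1 Affymetrix Chicken Genome Array per sample. No embryo was genetically altered, each sample is a pool, the control population holds every electroporated tissue outside the sorted domain, and the sources used here do not say which samples came from the same pool.

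A bHLH protein binds a short DNA element, the E-box, as a pair, with a basic stretch that contacts DNA and a helix-loop-helix that joins the partners. Tissue-restricted members usually pair with the widely expressed E proteins TCF3, TCF4 and TCF12, while the ID proteins lack the basic stretch and hold E proteins in pairs that cannot bind DNA. In the vertebrate gastrula MSGN1 acts in presomitic mesoderm, TCF15 (Paraxis) in forming somites, TWIST1 in mesenchyme of the head and other regions, and the HAND genes in lateral plate and heart mesoderm, whereas the bHLH gene TAL1 directs blood formation.

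Values are signal intensities on a linear scale. Array medians lay between 87.7 and 91.1, and 56 reporter probe sets other than GFP had a median of 31.9 to 37.8 per array and a 90th percentile of 80.2 to 100.3. The highest value among them was 11757 to 12679 in Hb-eGFP+ arrays and 5440 to 6405 in RFP+ control arrays, so not all of them are dim. Below, the range of the reporter probe sets means signals up to about their 90th percentile. The GFP probe set read 16931 to 17347 in Hb-eGFP+ cells and 836 to 992 in RFP+ control cells. Of the hemangioblast and endothelial markers, 7 of 7 measured were higher in Hb-eGFP+ cells. Their summed intensities were 25809 to 27423, against 9572 to 10183 in RFP+ control cells. The study had selected 6 of them on these samples, all but KDR (log2 fold change 0.41). KDR (cVEGFR2) had been examined by RT-PCR in the sorted RNA before hybridization, so it is not an independent check either. Only 1 of its 5 probe sets was called higher. Markers of other tissues were lower in Hb-eGFP+ cells: 6 of 6 for neuroectoderm (summed intensity 1232 to 1400 against 9891 to 9979), 4 of 5 for endoderm (6916 to 7677 against 14248 to 15178) and 4 of 5 for non-neural ectoderm (2284 to 2511 against 6347 to 7008). Of these, the study had selected OTX2, SOX17 and CDH1, 1 in each list, on the same samples, and SOX17 alone gave 9083 to 10870 of the endoderm sum in RFP+ control cells; without them 5 of 5, 3 of 4 and 3 of 4 were lower. These shares come from limma, a linear model fitted to all genes at once, at a Benjamini-Hochberg adjusted p under 0.05. No marker was at 0 in any array. Their part in the results below was not tested.

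Of the 5 bHLH genes, MSGN1 and TWIST1 were lower in Hb-eGFP+ cells than in RFP+ control cells, and no call was made for TCF15, HAND1 or HAND2. MSGN1 was lower by 14.6-fold and TWIST1 by 2.61-fold. In their means, the other paraxial gene, TCF15, was lower by 1.23-fold and the lateral plate gene HAND2 by 1.17-fold, and HAND1 was higher by 1.05-fold. TCF15 and HAND1 were dim in both groups, so a fall as large as that of MSGN1 could not have been read from them. Smaller falls were called from such signals, as for FGF8 of the paraxial list below (37.5 in Hb-eGFP+ and 92.5 in RFP+ control cells). By limma, 2 of the 5 genes (a share of 40%) were lower and 0 of 5 were higher, beside 10.7% lower and 9.22% higher over all genes tested. The arrays of the groups did not overlap for 3 of the 5, MSGN1, TWIST1 and TCF15, beside 39.5% of all genes in either direction. Because each sample is a population of cells, fewer cells of a type and less RNA per cell cannot be told apart.

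**Figure D1:**
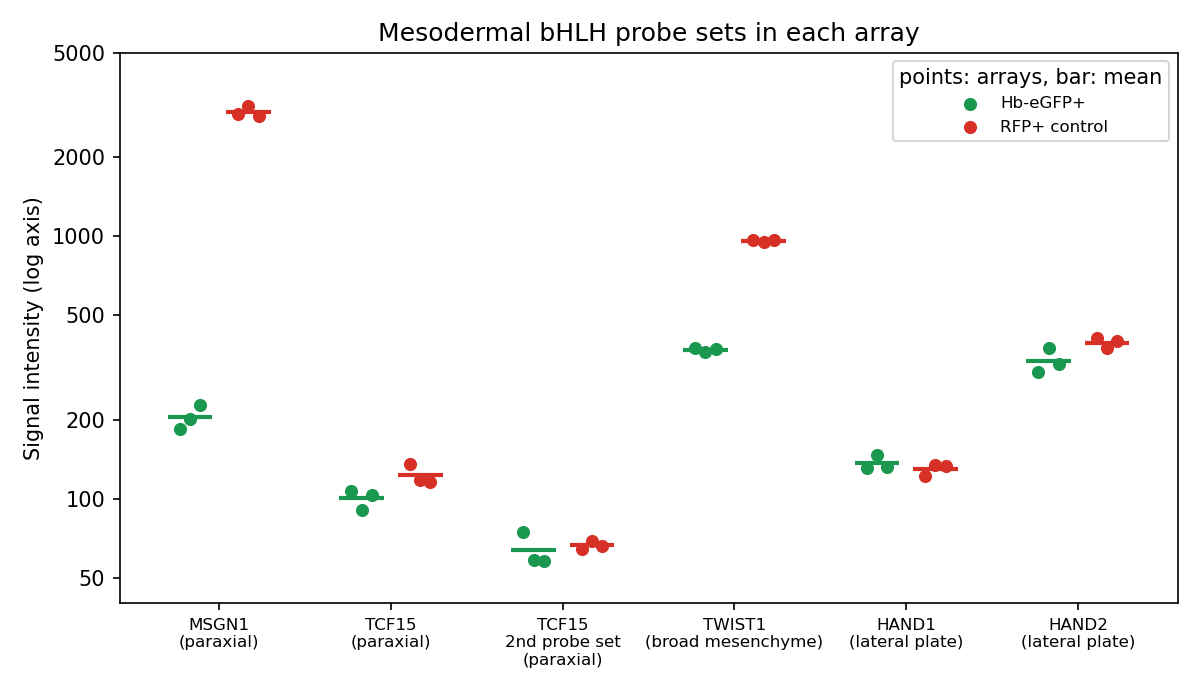
Signal intensity (log axis) of the 6 member probe sets in each array, with Hb-eGFP+ arrays in green to the left of RFP+ control arrays in red, and bars at the group means. The Hb-eGFP+ points lie far below the controls for MSGN1 and TWIST1, just below them for the brighter TCF15 probe set, and overlap them for the second TCF15 probe set, HAND1 and HAND2, with 2 of the 3 HAND2 points below every control.

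MSGN1 (mesogenin) was the most changed of the paraxial genes among the 5. In mouse, it is switched on in the presomitic mesoderm by Wnt signalling together with Tbx6 and is needed for the cells of the posterior streak to become paraxial mesoderm. Its probe set read 185, 201 and 228 in the Hb-eGFP+ arrays, against 2930, 3140 and 2883 in the RFP+ control arrays. Every Hb-eGFP+ array was thus far below every control array. The means were 205 ± 21.7 in Hb-eGFP+ cells and 2984 ± 136 in RFP+ control cells (SD, n = 3 each), which is a change of -3.87 on the log2 scale with a standard error of 0.09 (limma, adjusted p = 8.0e-07). Only 5 called genes fell further on this scale, which puts MSGN1 at rank 6 of the 1397 genes that were lower. The study had selected MSGN1 on these same samples, so its direction and its call are not independent evidence. The Hb-eGFP+ signal of MSGN1 stayed above the 90th percentile of the reporter probe sets in all 3 arrays, so a residual signal was measured there. Whether it came from MSGN1 transcripts or from other RNA on this probe set was not tested.

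TCF15 was read at a low signal in both groups. This gene, known as Paraxis, is needed for somites to form an epithelium, in mouse and chick, and embryos at the stage of harvest have no somites yet. Whether the low signal has to do with the stage was not tested. The brighter probe set read 107, 90.7 and 103 in the Hb-eGFP+ arrays and 136, 118 and 116 in the RFP+ control arrays. The groups did not overlap, but the gap between the closest arrays was small, and the log2 fold change of -0.30 (standard error 0.10) had an adjusted p = 0.070 from limma. Its unadjusted 95% interval ran from -0.52 to -0.07. The second TCF15 probe set read 74.8, 58.5 and 58.1 in Hb-eGFP+ arrays, against 64.3, 69.3 and 66.3 in RFP+ control arrays, so that the groups overlapped (log2 fold change -0.07, adjusted p = 0.76 from limma over probe sets). At these levels, not far above the reporter probe sets, a difference such as that of MSGN1 could not have been read from either probe set. When dim probe sets were left out of the test, the brighter probe set had an adjusted p of 0.049 at the same fold.

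TWIST1 encodes a bHLH factor of mesenchyme that is used in head mesoderm, in sclerotome and in lateral plate derivatives, and that is known from several animals for its part in epithelial-mesenchymal transition. Its probe set read 375, 361 and 373 in Hb-eGFP+ cells, and 971, 953 and 966 in RFP+ control cells. The arrays of each group lay close together and the groups were well apart. On the log2 scale TWIST1 fell by 1.38 (standard error 0.06, adjusted p = 7.5e-06 from limma), with an interval of the difference from -1.52 to -1.24. It was at rank 146 of the genes that were lower. TWIST1 is not in the study's table of selected genes. The related gene TWIST2 was dim, at 36.4 ± 6.09 in Hb-eGFP+ and 46.0 ± 1.93 in RFP+ control cells (SD, n = 3 each), and was not called (adjusted p = 0.093 from limma).

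The lateral plate genes HAND1 and HAND2 encode closely related bHLH factors, with roles in heart and limb, and in mouse Hand1 is also required in the extraembryonic tissues. HAND1 read 131, 147 and 132 in the Hb-eGFP+ arrays and 122, 134 and 134 in the RFP+ control arrays. The groups overlapped, and limma gave a difference of 0.08 on the log2 scale (standard error 0.08, adjusted p = 0.55) with a 95% interval from -0.11 to 0.26, which is a fold between 0.928 and 1.20. HAND1 was about as dim as the brighter TCF15 probe set, so a fall as large as that of MSGN1 could not have been read from it either. Its signal was above the 90th percentile of the reporter probe sets in every array, so a smaller fall could have been read. HAND2 read 304, 377 and 325 in the Hb-eGFP+ arrays and 409, 374 and 398 in the RFP+ control arrays. All but Hb-eGFP+ replicate 2 lay below the controls. For HAND2 limma gave -0.24 on the log2 scale (standard error 0.09, adjusted p = 0.12), with an unadjusted interval from -0.46 to -0.02. Without Hb-eGFP+ replicate 2 the log2 fold change was -0.32 with an adjusted p of 0.039, so this 1 array decides whether HAND2 is called lower. Each HAND gene is read by a single probe set whose name has the suffix that Affymetrix gives to probes matching more than 1 transcript, so signal from related transcripts cannot be told apart from their own.

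**Figure D2:**
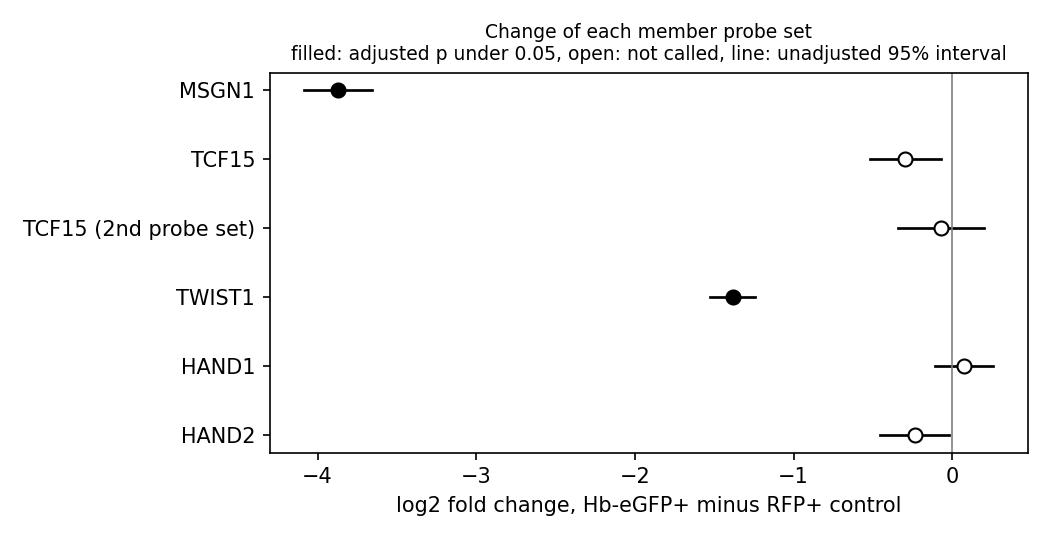
Log2 fold change of each member probe set, Hb-eGFP+ minus RFP+ control, with its unadjusted 95% interval, filled where the adjusted p was under 0.05. MSGN1 (-3.87) and TWIST1 (-1.38) lie apart from the other 4 probe sets, which sit between -0.30 and 0.08.

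Set side by side, the paraxial and lateral plate genes did not form 2 even classes. The dim signals of TCF15 and HAND1 limit this comparison, since neither could show a fall as large as that of MSGN1. In order from the lowest, the log2 fold changes were -3.87 for MSGN1, -1.38 for TWIST1, -0.30 for TCF15, -0.24 for HAND2 and 0.08 for HAND1. The intervals of MSGN1 and TWIST1 overlapped neither each other nor those of the other genes, while the intervals of TCF15 and HAND2 overlapped over most of their length and both reached into that of HAND1. The bound of at least 1.7-fold that the methods of the study set, with a 90% interval, was passed by 2 of the 6 probe sets (33.3%), where over all probe sets 1.31% passed it in the lower direction. The lower bound of the fold was 13.1 for MSGN1 and 2.55 for TWIST1. It was 1.09 for TCF15 and 1.05 for HAND2, and for HAND1 it was 0.972, which means that the interval includes no difference.

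Among other genes listed for these tissues, those of the paraxial list were mostly lower. Those of the lateral plate and extraembryonic list went in both directions. Of 28 measured paraxial genes besides the 5, 18 were lower, 0 were higher and 10 were not called by limma, with a median log2 fold change of -0.72, against 0.01 over all genes tested. Of 27 measured lateral plate and extraembryonic genes, 8 were lower, 4 were higher and 15 were not called, with a median of 0.03. Over all genes, 10.7% were lower and 9.22% higher. In both lists many uncalled genes were dim. The paraxial PAX7, MEOX2, TBX6, MYF5 and PCDH8 had group means of 36.2 to 77.3. In the lateral plate list, BMP4, TBX2, TBX3, TBX4, TBX5 and WNT2B had means of 39.8 to 90.9. Such signals, within the range of the reporter probe sets, give little reading of a difference. The uncalled counts and the medians rest partly on them. CITED2, called higher, was also dim (58.8 in Hb-eGFP+ and 42.5 in RFP+ control cells). So were some paraxial genes called lower, in the same order RIPPLY2 (26.7 and 58.3), EPHA4 (36.1 and 48.35) and FGF8 (37.5 and 92.5). With dim probe sets removed, 14 paraxial genes were called lower and 0 higher, beside 1364 lower and 1269 higher of the 9497 genes then tested. The number of list genes left at this setting is not given here. In the lateral plate and extraembryonic list 8 were then lower and 3 higher. The study chose 5 of the paraxial genes and 1 of the lateral plate genes on these samples, which is not independent evidence of a direction. Without them, 13 of 23 paraxial genes were lower, and 8 of 26 lateral plate genes were lower and 3 higher. The lists were drawn up with earlier results of these data known. Several paraxial entries are not restricted to that tissue. The study's table places FST also in neural plate, WNT8A also in primitive streak, and FGF18 in primitive streak and rostral neuroectoderm. The neuroectoderm, endoderm and ectoderm markers given above were lower in the same arrays, and their part in these counts was not tested.

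**Figure D3:**
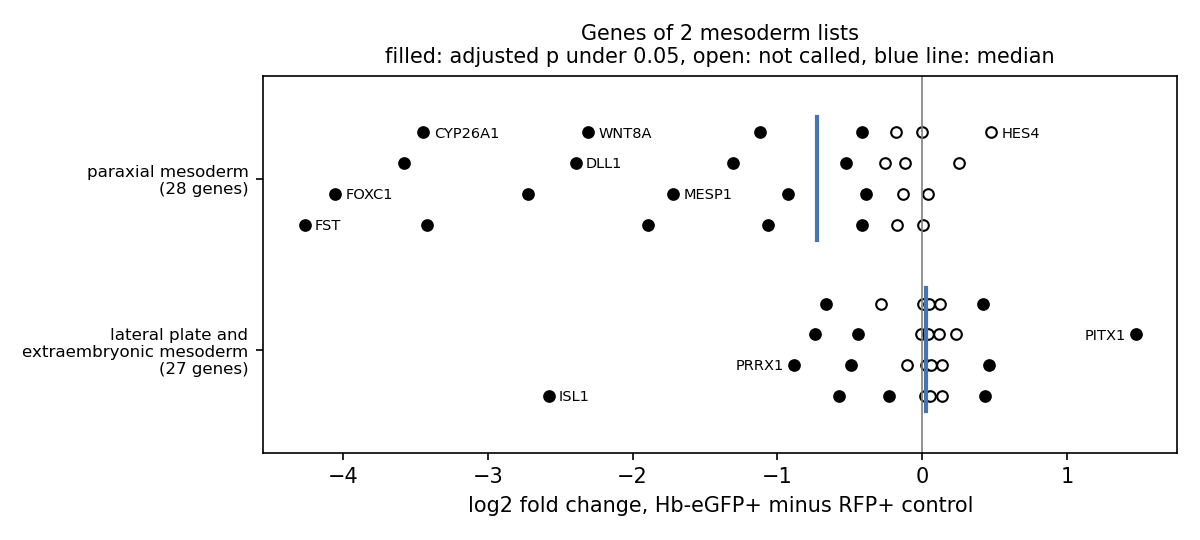
Log2 fold change (Hb-eGFP+ minus RFP+ control) of each measured gene in the paraxial list above and in the lateral plate and extraembryonic list below it, 1 point per gene, filled where the adjusted p was under 0.05, with a line at the median. The paraxial genes extend to -4.26 (FST) with a median of -0.72, and the lateral plate genes gather around 0.03 with ISL1 (-2.58) and PITX1 (1.48) at the ends.

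The paraxial genes with the smallest p were FST, WNT8A, CYP26A1 and FOXC1. The study had selected FST and WNT8A on these samples, so their falls are not independent evidence. FST encodes follistatin, which binds activin and BMPs, and read 41.5, 37.9 and 36.8 in Hb-eGFP+ arrays and 730, 730 and 770 in RFP+ control arrays. WNT8A, a ligand of the streak, was lower by 2.31 on the log2 scale and CYP26A1, an enzyme that breaks down retinoic acid, by 3.45. FOXC1, a forkhead gene of paraxial mesoderm, read 24.6 to 25.4 in Hb-eGFP+ cells and 364 to 524 in RFP+ control cells. In Hb-eGFP+ cells both FST and FOXC1 read no more than the reporter medians or little above them, and a fold taken against such a signal is approximate.

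Genes that act around MSGN1 in mouse differed in how they were read. WNT3A, a ligand upstream of it, read 195, 206 and 224 in Hb-eGFP+ arrays and 855, 671 and 798 in RFP+ control arrays, and fell by 1.89 on the log2 scale (adjusted p = 2.2e-05 from limma). DLL1, the Notch ligand of presomitic mesoderm and a target of MSGN1, read 699, 598 and 744 in Hb-eGFP+ arrays and 3525, 3839 and 3336 in RFP+ control arrays, a log2 fold change of -2.39, and its second probe set fell as well. For both genes every Hb-eGFP+ array was below every control array. DLL1, unlike WNT3A, had been selected by the study on these samples. TBX6, a T-box gene of the same cells, read 53.2 to 56.3 in Hb-eGFP+ and 48.2 to 57.5 in RFP+ control arrays (log2 fold change 0.01, adjusted p = 0.96 from limma). In the control arrays, where MSGN1 and DLL1 were bright, this TBX6 probe set was dim too, so it gives no reading of a difference. The paraxial gene with the smallest p in the other direction was HES4, a Notch-responsive bHLH repressor, with 1477, 887 and 1059 in Hb-eGFP+ arrays and 714, 877 and 828 in RFP+ control arrays, and it was not called (adjusted p = 0.11), although it was without Hb-eGFP+ replicate 2 (log2 fold change 0.64, adjusted p = 0.039 from limma).

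In the lateral plate and extraembryonic list, the genes with the smallest p were ISL1, PRRX1, PITX1 and TCF21. ISL1, a LIM homeobox gene of heart progenitors, read 95.1, 101 and 102 in Hb-eGFP+ cells and 574, 583 and 621 in RFP+ control cells, a log2 fold change of -2.58 (adjusted p = 1.4e-06 from limma), and its other probe set fell by 2.35. PRRX1, a homeobox gene of lateral plate mesenchyme, fell by 0.88 and was called lower by all 3 of its probe sets. PITX1, a homeobox gene of posterior lateral plate, was higher in Hb-eGFP+ cells at 589, 658 and 773, against 222, 214 and 294 in RFP+ control cells (log2 fold change 1.48, adjusted p = 0.00039 from limma), and its second probe set was higher by 1.42. PITX1 is the 1 gene of this list that the study had selected on these samples, so its direction is not independent evidence. ISL1, PRRX1 and TCF21 were all lower. Smaller increases were seen for the homeobox gene MSX1 (log2 fold change 0.42) and for SMAD6, an inhibitor of BMP signalling (0.43), which are not in the study's table. The other genes of the list called lower were NKX2-5 (-0.74), HEY1 (-0.58), BMP2 (-0.49, by 1 of its 3 probe sets), GATA6 (-0.45) and GATA5 (-0.23). For GATA5 limma gave an adjusted p of 0.040 over genes, but 0.11 for the same probe set over probe sets. Like HAND1, the lateral plate genes FOXF1 (-0.11, adjusted p = 0.65) and GATA4 (0.05, adjusted p = 0.80) were not called, at signals of 63.9 to 94.2 in all 6 arrays, which are within the range of the reporter probe sets and give little reading of a difference.

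Among the genes of the E proteins, which are partners of these bHLH factors, and of the ID proteins, which hold E proteins, ID1 and ID4 were higher in Hb-eGFP+ cells. Of 7 E protein and ID genes, 2 were higher (28.6%), 1 was lower (14.3%) and 4 were not called, beside 9.22% higher and 10.7% lower over all genes. ID1 read 2435, 2450 and 2378 in the Hb-eGFP+ arrays and 1531, 1451 and 1473 in the RFP+ control arrays. ID4 read 4423, 4574 and 4519 in the Hb-eGFP+ arrays and 2956, 2966 and 3110 in the RFP+ control arrays. For both genes all Hb-eGFP+ arrays were above all control arrays, and the limma estimate on the log2 scale was 0.71 for ID1 (standard error 0.06, adjusted p = 0.00021) and 0.58 for ID4 (standard error 0.06, adjusted p = 0.00058). ID2 (0.08) and ID3 (-0.39) were not called. Among the E proteins, TCF3 was lower by 0.29 (adjusted p = 0.029 over genes, but 0.073 for the same probe set over probe sets), and 1 of its dimmer probe sets was lower by 0.70. TCF12, with a mean of 8258 ± 378 in Hb-eGFP+ cells and 8752 ± 347 in RFP+ control cells (SD, n = 3 each), and TCF4 were not called, with adjusted p of 0.45 and 0.29 from limma.

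**Figure D4:**
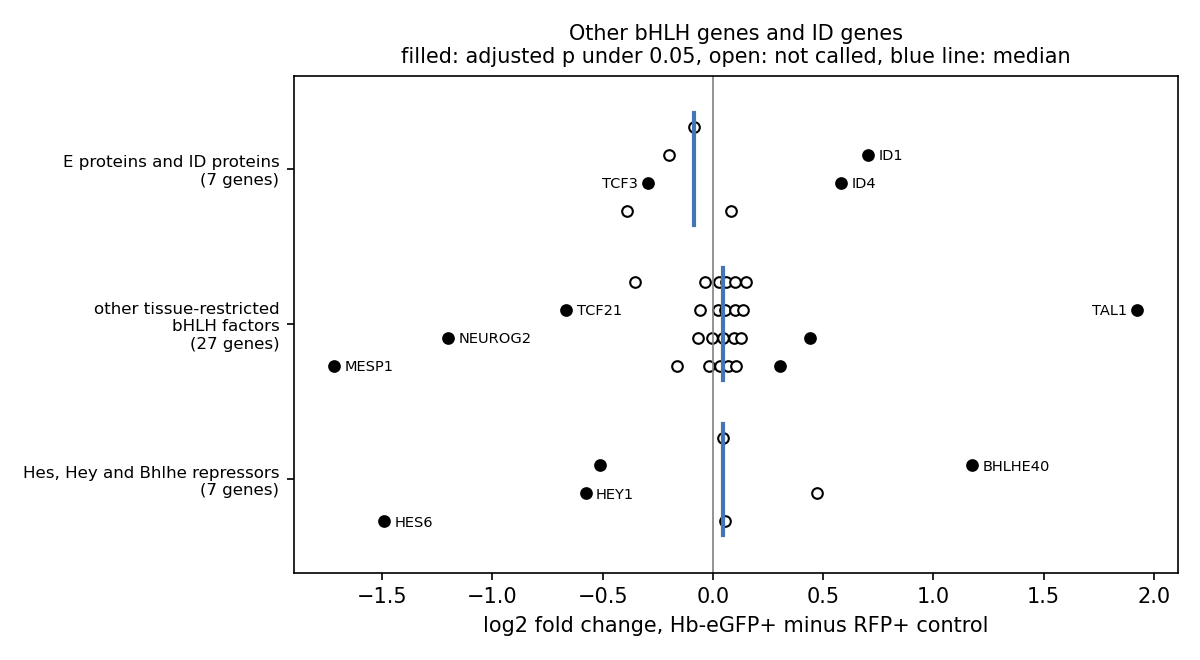
Log2 fold change (Hb-eGFP+ minus RFP+ control) of E protein and ID genes, of other tissue-restricted bHLH genes and of the Hes, Hey and Bhlhe repressors, from top to bottom, 1 point per gene, filled where the adjusted p was under 0.05, with a line at the median. Most tissue-restricted bHLH genes lie near 0, with TAL1 (1.93) at the far right and MESP1 (-1.72) at the far left. Many of those near 0 had dim signals.

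Among 27 other tissue-restricted bHLH genes, 3 were higher (11.1%), 3 were lower (11.1%) and 21 were not called. These shares are close to those over all genes, and the median of the list was 0.04. Many of the uncalled genes were dim. ATOH1, ATOH7, NEUROD1, NEUROG1, SCX and TAL2 had group means of 21.0 to 72.2, within the range of the reporter probe sets. The uncalled count and the median rest partly on such genes. TAL1, which the study had selected on these samples, stood at the upper end. It read 6669, 6107 and 6292 in Hb-eGFP+ arrays, against 1700, 1662 and 1655 in RFP+ control arrays. Of its 4 probe sets, 2 were called higher. A further one, at 399 in Hb-eGFP+ and 324 in RFP+ control cells, was not called (log2 fold change 0.29, adjusted p = 0.092 from limma over probe sets). Besides TAL1, the genes called higher were ATOH8 (0.30) and ASCL2 (0.44). The same probe sets were not called by limma over probe sets (adjusted p of 0.067 and 0.075). At the lower end was MESP1, a bHLH gene of nascent mesoderm that in mouse marks heart and head mesoderm precursors, with 536, 473 and 478 in Hb-eGFP+ arrays and 1689, 1648 and 1550 in RFP+ control arrays (-1.72 on the log2 scale, standard error 0.08, limma adjusted p = 8.4e-06). The fall of MESP1 lay between those of MSGN1 and TWIST1, but its second, dimmer probe set was not called (-0.17, adjusted p = 0.39). The proneural gene NEUROG2 fell by 1.20, with Hb-eGFP+ signals of 33.0 to 39.0 that were at the reporter level, and TCF21, a bHLH gene of lateral plate derived organs, fell by 0.66. MESP1 and TCF21 were also counted as lower above, in the paraxial and the lateral plate list in that order. The muscle genes MYF5, MYOD1, MYOG and MYF6 were not called. MYF5 and MYOD1 read near the reporter medians and MYF6 below the reporter 90th percentile in both groups, so these 3 give no reading of a difference, and MYOG was little brighter, at 119 in Hb-eGFP+ cells and 111 in RFP+ control cells on average.

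Of 7 measured Hes, Hey and Bhlhe repressors, 3 were lower (42.9%), 1 was higher (14.3%) and 3 were not called, beside 10.7% lower and 9.22% higher over all genes. HES6 fell by 1.49 and read 52.9 to 62.3 in Hb-eGFP+ cells and 152 to 183 in RFP+ control cells. HEY1, a Notch target of vessels and heart, fell by 0.58, and BHLHE41 by 0.51. HEY1 was also counted as lower above, in the lateral plate list. BHLHE40 was higher by 1.18 (adjusted p = 0.00096 from limma), but none of its other 3 probe sets was called.

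Genes of the epithelial-mesenchymal transition, in which TWIST1 is known to act, were compared as a further group. Of 17 measured, 8 were lower (47.1%), 3 were higher (17.6%) and 6 were not called, beside 10.7% lower and 9.22% higher over all genes, with a median log2 fold change of -0.39. The lower ones included epithelial genes, namely ESRP2 (-1.75), which controls splicing in epithelia, CDH1 (-1.93), which encodes E-cadherin, and EPCAM (-1.17), together with CDH2 (-1.63), which encodes N-cadherin. PRRX1 (-0.88), TBXT (-0.60) and CDH11 (-0.39) were lower as well, while FN1 (0.48) and MMP2 (0.52) were higher. Only 2 of the 8 probe sets of FN1 were called higher, and the second probe sets of CDH11 and ESRP2 were not called. CDH1 and CDH2 had been selected by the study on these samples, and without them 6 of 15 were lower. ZEB1, a repressor of E-cadherin, was higher, at 1750, 1947 and 1821 in Hb-eGFP+ arrays and 1169, 1124 and 1027 in RFP+ control arrays (log2 fold change 0.73, adjusted p = 0.00058 from limma). Of its 4 probe sets, 2 were higher and 1 dim one was lower. The zinc finger gene SNAI2 fell by 0.52 (adjusted p = 0.016 from limma), while SNAI1 (-0.39, adjusted p = 0.11) and ZEB2 (0.07, adjusted p = 0.75) were not called. Of the 5 probe sets of ZEB2, 1 was called lower. PRRX1 in the lateral plate list, and SNAI2 and CDH11 in the paraxial list, were also counted as lower above. The non-neural ectoderm markers, which share CDH1 and EPCAM with this group, were lower in the same arrays, and their part in it was not tested.

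The genes whose log2 intensities followed each member most closely over the 6 arrays were ranked by Pearson's r, among genes above the median signal whose SD over the arrays was at least 0.5 times that of the member. Since the 6 arrays fall into 2 groups, a value near 1 for a called gene describes the group difference and little more. For MSGN1 they were SST1 (r = 0.9996), LMO1 (0.9996) and OTX2 (0.9995), a neuroectoderm gene, out of 56 genes compared. For TWIST1 they were SGPL1 (0.9999), ATP6AP1L (0.9996) and the ectoderm gene DLX5 (0.9995), out of 641. No paraxial or lateral plate gene of the lists was among the closest 3 of any member. For MSGN1 and TWIST1 this says little, since r hardly differed among the closest genes and only genes passing the filter were compared. Those of TCF15 (PSMC3IP, SH3GLB2 and RNLS, r of 0.968 to 0.982), HAND1 (TMEM184B, PELO and MED18, 0.969 to 0.986) and HAND2 (YTHDC1, SMC2 and JAM3, 0.986 to 0.993) were themselves not called.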

How the data were processed

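RNA from 3 Hb-eGFP+ and 3 RFP+ control samples, 40 ng each, was amplified and hybridized to Affymetrix Chicken Genome Arrays. The authors' software was GCOS 1.4 and dChip. The deposited values are dChip's signal intensity indices, 1 per probe set, modelled from normalized Perfect Match probes and linear. The normalization method and any background step are not given in the sources used here. Values were taken to log2 and not scaled again. Precision is limited by the number of arrays.

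Names came from the platform annotation, joined by gene ID to the RefSeq table of assembly GRCg7b (26853 of 27168 probe sets with 1 gene matched). The brightest probe set by mean log2 stood for its gene. Groups were compared unpaired with limma 3.58.1 in R 4.3.3 (lmFit and eBayes, two-sided, Benjamini-Hochberg, threshold 0.05) over 13009 genes, or over all probe sets for a gene's further ones. The study's rule, a lower 90% bound of the ratio of means above 1.7, was computed from the spread between arrays, without dChip's measurement errors. For 1 gene alone, exact permutation of 3 arrays against 3 gives a two-sided p of at least 0.1. Both calculations were tested on simulated data. The alternatives tried are given in the closing section.

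Members and lists were chosen with earlier results of these data known, and 136 of 167 list entries were measured. Named genes are the members, in each list the 4 with the smallest p and the first of the other direction, and the 3 genes most alike to each member. DLL1, WNT3A, TBX6, MSX1, SMAD6, FOXF1, GATA4, TWIST2, SNAI1, SNAI2, ZEB2, ID2, TCF4, TCF12 and the muscle genes are outside that rule and were picked with their values in view. So were TBXT, CDH11, FN1, MMP2, CITED2, FGF18 and the genes named as examples of dim signals. No sequences were used here.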

Additional observations from a re-analysis of the deposited data

How the results depend on the processing

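MSGN1 and TWIST1 stayed lower in Hb-eGFP+ cells with an adjusted p under 0.05 from limma in all 13 alternatives, with log2 fold changes from -3.95 to -3.58 and from -1.39 to -1.27, and HAND1 stayed uncalled in all 13 (0.02 to 0.11). The alternatives were quantile normalization, median centring, dim probe sets removed, an offset of 50, the replicate block, a variance trend with robust fitting, the mean over probe sets and each array left out in turn. TCF15 (-0.18 to -0.34) was called once, when dim probe sets were removed (-0.30, adjusted p = 0.049), where fewer genes are tested. HAND2 lay between -0.32 and -0.17 with single arrays left out and was called once, without Hb-eGFP+ replicate 2 (-0.32). With single arrays left out, 741 to 1070 genes were higher and 924 to 1291 lower, against 1200 and 1397. The higher count was lowest without Hb-eGFP+ replicate 3 (741), Hb-eGFP+ replicate 1 (769) and RFP+ control replicate 1 (794); in the paraxial list 0 to 1 were higher (HES4, without Hb-eGFP+ replicate 2) and 15 to 17 lower. Without the genes of the study's table, an alternative added after the data were seen, the paraxial and lateral plate lists kept 13 of 18 and 8 of 8 lower calls. Deviations of samples with the same replicate number correlated at -0.12, -0.05 and 0.10, so the numbers are not shown to pair them. With the replicate block 893 genes were higher and 1105 lower, and MSGN1 and TWIST1 had adjusted p of 0.00010 and 0.00035. It changed no call of a member. Signals near those of the reporter probe sets limit what TCF15, HAND1, TBX6, FOXC1, FOXF1, GATA4, the muscle genes and many other uncalled genes of the lists can show.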
